A study of Homo sapiens with 6 samples.

Results

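The genes described here are those of focal adhesion signalling and of the link between integrins and actin. They are the 127 genes, of the 29153 in the deposited table, that the table's KEGG annotation (a curated database of pathways) places in Focal adhesion but not in ECM-receptor interaction, with JUN and IGF1R left out. Integrins and matrix genes, which KEGG places in both pathways, are therefore not among them. RNA sequencing compared 3 libraries of HepG2 cells that carried a control short hairpin RNA (sh-NC, genotype given as Control) with 3 libraries of HepG2 cells that carried a hairpin against the long noncoding RNA LINC01977 (sh-LINC01977, named sh3 in the sample titles). Both groups had been exposed to lentivirus for 72 h, and the study's methods describe selection of infected cells with puromycin, without naming the groups. HepG2 is an established human liver cancer cell line. All libraries came from this single line. Nothing states that the libraries came from separate cultures, so the p-values measure only the spread between these samples, which may be technical.

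Focal adhesions are plaques at which integrins, the receptors for extracellular matrix, are tied through talin, vinculin, alpha-actinin and filamin to bundles of actin. Focal adhesion kinase and Src gather there with docking proteins such as paxillin and p130Cas, and pass the signal to the GTPases RAC1, CDC42 and RHOA, to MAP kinases and to AKT. Growth factor receptors use many of the same adaptors, which is why KEGG lists them in the same pathway. In hepatocytes and in liver cancer cells these structures contribute to spreading, migration and survival on matrix.

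Gene positions are those of the table, on hg38. The total counts were between 49929024 and 60441515 per library. Pearson correlations of log2 CPM were 0.985 to 0.987 within a group and 0.977 to 0.979 across groups. The targeted gene LINC01977 had counts of 4, 0 and 16 in the controls (sh-NC) and of 0, 0 and 4 in the sh-LINC01977 libraries, so that a reduction was not detectable at this depth and the groups rest here on the labels. The paper reports that it checked the knockdown in stable HepG2 cells by qRT-PCR. It does not say whether these libraries came from the same cells. Hepatocyte markers fixed as a list of 10 were well expressed, but 7 of them were lower after LINC01977 knockdown, at a summed level of 4810 to 5250 FPKM in the sh-NC libraries and of 3580 to 3630 FPKM in sh-LINC01977 libraries. In such bulk samples, fewer cells of a type and less RNA per cell cannot be told apart, and the part of this fall in the results below was not tested. Mitochondrial genes took up 11.7% to 13.5% of the counts in sh-NC and 10.6% to 11.7% in sh-LINC01977 libraries, and the same 19 genes were called without them. Of the other markers, the 5 endothelial genes were all below the filter on low values, PTPRC of blood cells was close to 0, and the mesenchymal list is given beside PDGFRB.

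A filter of a mean FPKM of at least 0.5 over the 6 libraries was passed by 92 of the 127 genes. FPKM values account for the length of the transcript as well as for the library, whereas CPM values are counts scaled to the library only, with TMM factors. On the length-corrected scale the mean FPKM of the 92 genes ran from 0.516 to 422, with a median of 6.95, beside a median of 4.14 over all 13452 genes that passed. The highest level was that of ACTB, which encodes beta-actin. In all, 4 of the 92 genes lay at 100 FPKM or more, 37 at 10 FPKM or more and 6 below 1 FPKM. Among the roles, actin and its linkers held the highest median level, and growth factor ligands the lowest. Together the 127 genes took up 1.23% to 1.28% of all counts in the sh-NC libraries and 1.34% to 1.37% in sh-LINC01977 libraries, so that the groups did not overlap. These shares rest on library totals, without TMM factors. In the edgeR fit with library totals, the median log2 fold change was 0.092 over the 92 genes and 0.065 over all tested genes. A median over genes does not measure a summed share, so how far other genes took part in this rise was not tested.

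**Figure D1:**
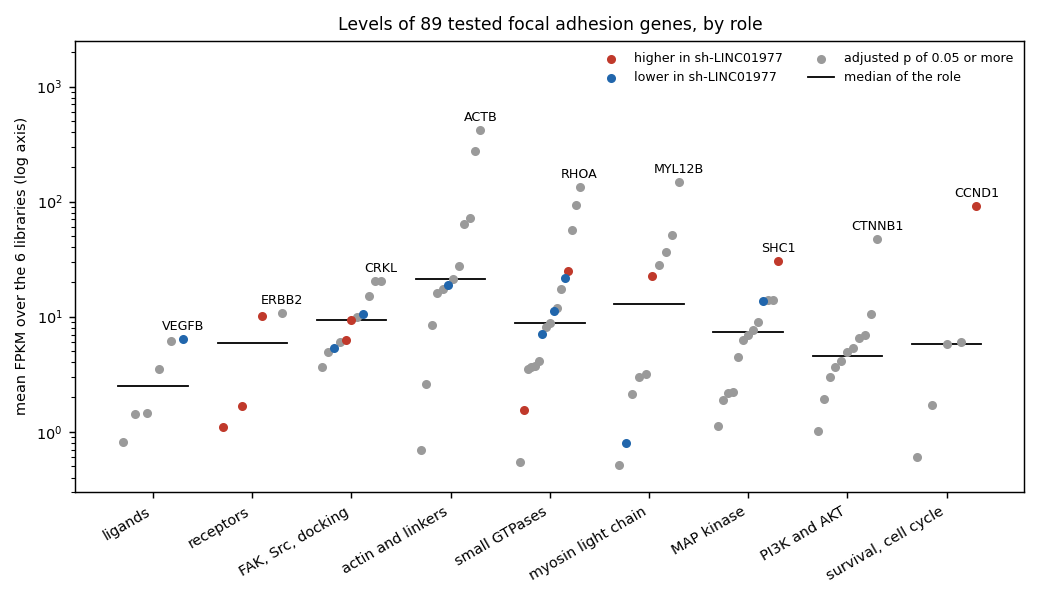
Mean FPKM over the 6 libraries (log axis) of 89 of the 92 tested genes, by role, with the median over all tested genes of each role as a bar and the highest gene of each role named. Genes higher in sh-LINC01977 cells (red), lower (blue) and not past the threshold (grey) lie at low and at high levels, with ACTB at 422 FPKM on top.

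With edgeR's quasi-likelihood test and Benjamini-Hochberg adjustment over all tested genes, 19 of the 92 genes had an adjusted p under 0.05 (20.7%, where 15.1% of all tested genes did). Of these, 10 were higher in sh-LINC01977 cells (10.9%, against 7.05% of all genes) and 9 were lower (9.78%, against 8.07%). The genes that were higher were RAC2, PDGFRB, CAPN2, EGFR, MET, SHC1, DOCK1, PPP1CB, CCND1 and PAK2, and the genes that were lower were VEGFB, RAP1A, VAV3, RAPGEF1, MYLK, VAV2, MAPK3, ROCK2 and ILK. This split depended on the scaling. With library totals in place of TMM, 18 of the 92 genes were higher and 5 lower, and the calls over all tested genes moved the same way, to 10.8% higher and 5.71% lower. The median log2 fold change of the 92 genes was 0.026, and that of all tested genes was -0.001. At an unadjusted p under 0.05 there were 42 of the 92 genes (45.7%), beside 30.5% of all genes.

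Most of the changes were small. The median log2 fold change was 0.40 over the 10 higher genes and -0.39 over the 9 lower genes, where all higher and all lower genes of the table had medians of 0.51 and -0.46. A change of less than 1.5-fold was found in 8 of the 10 higher and in 8 of the 9 lower genes. By the thresholds of the study, which were a 2-fold change and a P of 0.05 without adjustment, 2 of the 92 genes were higher, RAC2 and PDGFRB (2.17%, beside 1.55% of all genes), and 0 were lower, where 1.05% of all genes were. DESeq2 and limma also placed 0 genes below these thresholds, while without the third sh-LINC01977 library 1 gene, GRB2, was past them. The CPM of the groups did not overlap for 45 of the 92 genes (48.9%), with 23 higher (25.0%) and 22 lower (23.9%), and for 37.1% of all genes, with 18.8% higher and 18.3% lower.

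**Figure D2:**
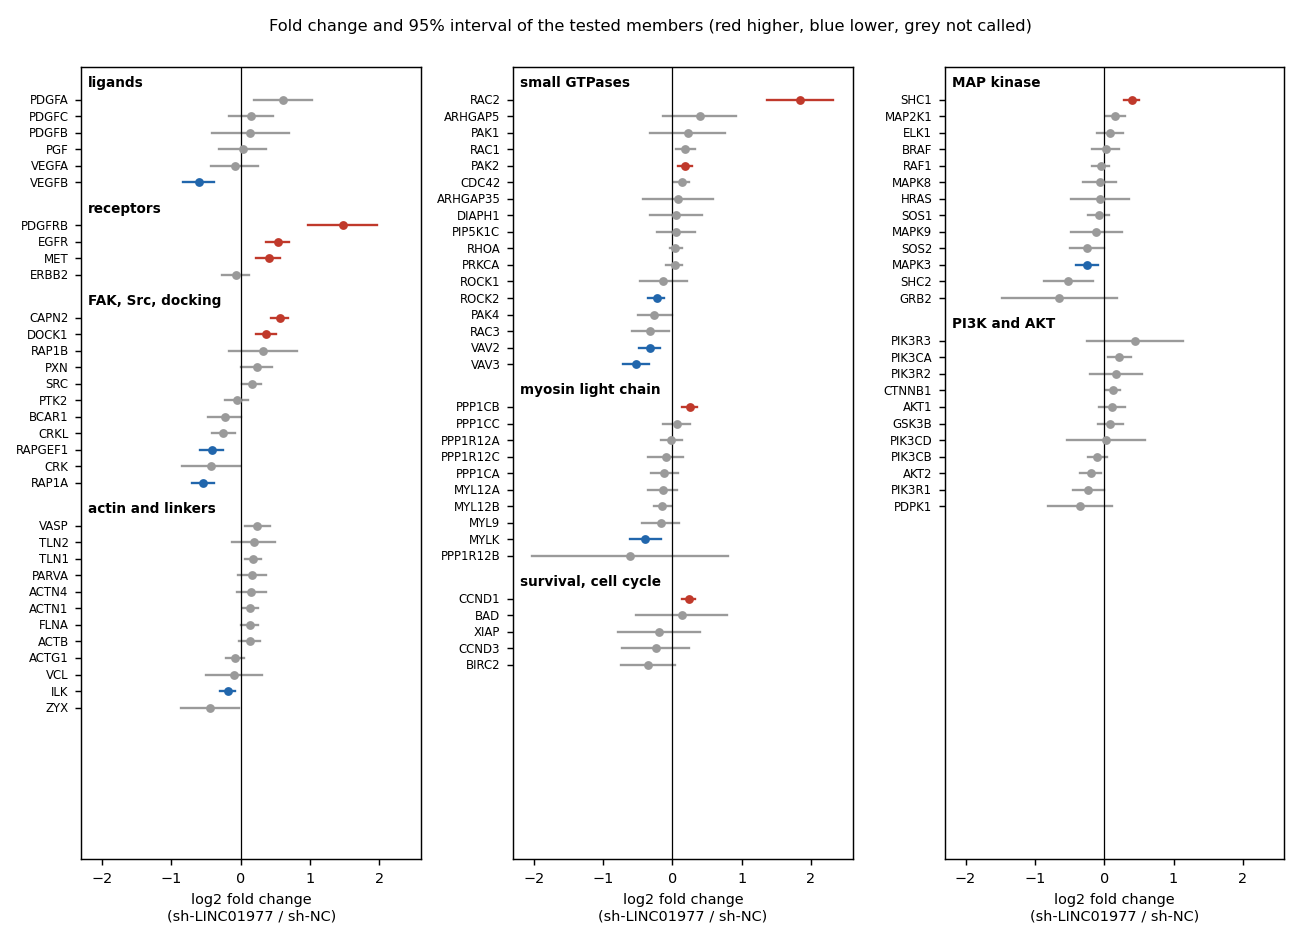
Log2 fold change of sh-LINC01977 over sh-NC (x axis) with its 95% interval for 89 of the 92 tested genes, grouped by role, with higher genes in red, lower genes in blue and the rest in grey. RAC2 at 1.84 and PDGFRB at 1.47 stand to the right of all others, and most intervals lie within 1 of 0.

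The counts of each role stand beside 7.05% higher and 8.07% lower over all tested genes, and each role holds few genes. Growth factor receptors held the largest share of higher genes, 3 of the 4 that passed the filter, with 0 lower. None of these 4 was lower at an unadjusted p under 0.05 either, nor with DESeq2 or limma. PDGFRB (ENSG00000113721, chromosome 5, 150113837 to 150155872, minus strand), the beta receptor for platelet-derived growth factor, had 3.78, 5.27 and 6.34 CPM in the sh-NC libraries and 16.3, 13.5 and 12.8 CPM in the sh-LINC01977 libraries. All sh-LINC01977 libraries were above all sh-NC libraries, and the mean went from 5.13 ± 1.3 to 14.2 ± 1.9 CPM (SD, n = 3 each). The log2 fold change was 1.47 (SE 0.21, edgeR adjusted p = 0.0062), and it was 0.76 in limma on log2(FPKM + 1), where the pseudocount is large beside a level of 0.567 FPKM in sh-NC cells. PDGFRB is also in the list of mesenchymal markers, of which 7 were in the table and only PDGFRB and COL1A1 passed the filter. COL1A1 had a log2 fold change of 0.73 (edgeR adjusted p = 0.0504). The summed level of the 7 was 3.22 to 4.34 FPKM in the sh-NC libraries and 5.77 to 7.93 FPKM in sh-LINC01977 libraries. Of the 5 below the filter, FBN1 had means of 0.154 and 0.242 FPKM in sh-NC and sh-LINC01977 cells, COL6A3 of 0.00688 and 0.0363 FPKM, THY1 of 0.00592 and 0.0155 FPKM, COL3A1 of 0 and 0.00744 FPKM and VIM of 0.181 and 0.0615 FPKM, so that VIM alone was lower after knockdown. Their part in the PDGFRB result was not tested.

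EGFR (ENSG00000146648, chromosome 7, 55019021 to 55211628, plus strand), the receptor for epidermal growth factor, stood at 20.2, 20.4 and 22.2 CPM in the sh-NC libraries and at 30.5, 30.4 and 30.1 CPM in sh-LINC01977 libraries. The knockdown libraries were nearly equal to each other and all above the controls, with a log2 fold change of 0.53 (SE 0.069, edgeR adjusted p = 0.00448). MET, the receptor for hepatocyte growth factor, rose from 75.9 ± 3.3 to 99.8 ± 8.4 CPM (mean ± SD, n = 3 each), with a log2 fold change of 0.40 (SE 0.074, edgeR adjusted p = 0.0161). Without the first sh-NC library the adjusted p of MET was 0.0541. In contrast, ERBB2, a receptor of the EGFR family that binds no ligand itself, had 133, 148 and 141 CPM in the sh-NC libraries and 138, 119 and 144 CPM in sh-LINC01977 libraries, and these ranges overlapped. On the length-corrected scale, ERBB2 (10.8 and 10.7 FPKM in sh-NC and sh-LINC01977 cells) and MET (8.56 and 11.8 FPKM) were the main receptors of the set in both groups, and EGFR (1.33 and 2.01 FPKM) stayed below them.

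Of the ligands for such receptors, 6 of 10 passed the filter, with 1 lower and 0 higher. VEGFB (ENSG00000173511, chromosome 11, 64234538 to 64238793, plus strand), a growth factor of the VEGF family, had 13.8, 15.7 and 14.6 CPM in the sh-NC libraries and 9.32, 10.1 and 9.38 CPM in sh-LINC01977 libraries. The groups were well apart, with a log2 fold change of -0.61 (SE 0.095, edgeR adjusted p = 0.00863), the largest decrease among the 9 lower genes. VEGFA, the main angiogenic factor of the family, had 110, 135 and 96.1 CPM in the sh-NC libraries and 117, 111 and 92.5 CPM in sh-LINC01977 libraries. Its log2 fold change of -0.09 (95% interval -0.43 to 0.25, edgeR adjusted p = 0.706) was within the spread of the libraries and changed sign with the third sh-LINC01977 or the second sh-NC library left out. PDGFA, a ligand of the PDGF receptors, stood at 3.31 ± 0.58 and 5.04 ± 0.34 CPM (SD, n = 3 each). Its groups did not overlap, but the log2 fold change of 0.61 missed the threshold (edgeR adjusted p = 0.0652), which it passed with DESeq2 and with library totals and not with limma. PDGFA was the 1 ligand higher at an unadjusted p under 0.05.

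**Figure D3:**
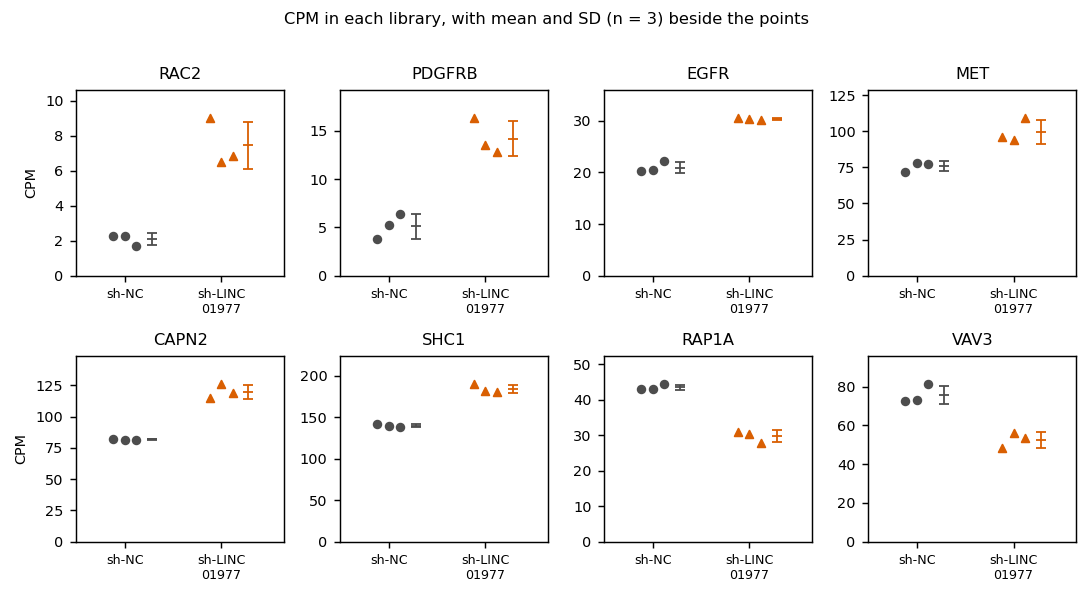
CPM in each library (y axis, from 0) of 8 genes past the threshold, with sh-NC as circles and sh-LINC01977 as triangles and the mean and SD (n = 3) beside the points. RAC2 and PDGFRB differ most, EGFR and SHC1 show little spread within groups, and RAP1A and VAV3 are lower in all 3 sh-LINC01977 libraries.

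The kinases at the centre of the pathway did not pass the threshold. PTK2, which encodes focal adhesion kinase, had 83.3, 91.0 and 81.6 CPM in the sh-NC libraries and 79.6, 87.5 and 77.9 CPM in sh-LINC01977 libraries. These ranges overlapped, and the log2 fold change was -0.06 with a 95% interval of -0.23 to 0.10 (edgeR adjusted p = 0.59). With library totals and in both limma fits the log2 fold change of PTK2 was slightly above 0. SRC, the kinase that partners it, stood at 153 ± 4.1 and 170 ± 10 CPM (mean ± SD, n = 3 each), with a log2 fold change of 0.16 (edgeR adjusted p = 0.112). PXN, which encodes the docking protein paxillin, had a log2 fold change of 0.23 (SE 0.093, edgeR adjusted p = 0.146), and BCAR1, which encodes p130Cas, one of -0.23 (SE 0.10, edgeR adjusted p = 0.177).

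Changes were found in genes that act beside these kinases. CAPN2 (ENSG00000162909, chromosome 1, 223701593 to 223776018, plus strand), the large subunit of the protease m-calpain, which cleaves talin and other adhesion proteins, had 82.5, 81.5 and 81.3 CPM in the sh-NC libraries and 115, 126 and 119 CPM in sh-LINC01977 libraries. The spread within sh-NC was small and the groups were far apart, with a log2 fold change of 0.56 (SE 0.052, edgeR adjusted p = 0.0016, the smallest among the 92 genes). DOCK1, which activates RAC together with p130Cas and CRK, rose from 55.3 ± 3.3 to 71.2 ± 0.92 CPM (mean ± SD, n = 3 each), with a log2 fold change of 0.37 (SE 0.061, edgeR adjusted p = 0.0108). RAPGEF1, an exchange factor, is bound by CRK and loads RAP1 with GTP. It had 97.5, 114 and 103 CPM in the sh-NC libraries and 81.7, 76.0 and 77.5 CPM in sh-LINC01977 libraries. Its groups did not overlap, with a log2 fold change of -0.42 (SE 0.070, edgeR adjusted p = 0.0107).

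RAP1A (ENSG00000116473, chromosome 1, 111542218 to 111716691, plus strand), a GTPase that switches integrins on and is a target of RAPGEF1, fell as well. The levels were 43.0, 43.1 and 44.4 CPM in the sh-NC libraries and 30.9, 30.5 and 27.9 CPM in sh-LINC01977 libraries, so that every sh-LINC01977 library lay far below the controls. The log2 fold change was -0.55 (SE 0.064, edgeR adjusted p = 0.00318). Its close relative RAP1B had 50.7, 78.5 and 76.2 CPM in the sh-NC libraries and 73.6, 77.0 and 105 CPM in sh-LINC01977 libraries, which overlapped (log2 fold change 0.32, 95% interval -0.17 to 0.81, edgeR adjusted p = 0.344). CRK and CRKL, the adaptors that bring DOCK1 and RAPGEF1 to paxillin and p130Cas, had log2 fold changes of -0.43 (edgeR adjusted p = 0.153) and -0.26 (edgeR adjusted p = 0.0505). Neither passed the threshold, although their groups did not overlap, and CRKL passed it with DESeq2 and with median-ratio scaling. RAP1A and RAP1B share long stretches of coding sequence, so the split of reads between them is uncertain, as for other close copies below.

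**Figure D4:**
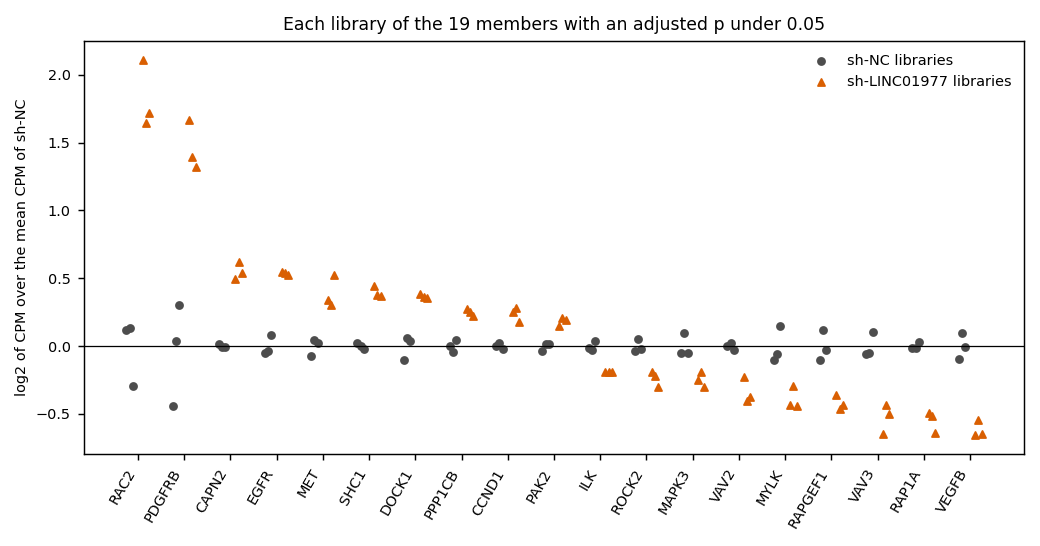
Log2 of the CPM in each library over the mean CPM of sh-NC (y axis) for the 19 genes with an adjusted p under 0.05, with sh-NC as circles and sh-LINC01977 as triangles. The 3 sh-LINC01977 libraries lie on the same side of all sh-NC libraries for each gene, by most for RAC2 and PDGFRB and by little for PAK2 and ILK.

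The structural part of the adhesion held 13 genes that passed the filter, of which 1 was lower and 0 were higher. At an unadjusted p under 0.05 there were 4 higher and 2 lower genes, DESeq2 found 2 higher and 2 lower, and each limma fit found 2 higher and 0 lower. Over all tested genes, DESeq2 called 20.9% and edgeR 15.1%. ILK, the integrin-linked pseudokinase that joins integrin tails to parvin, had 86.7, 85.7 and 89.7 CPM in the sh-NC libraries and 76.6, 76.4 and 76.5 CPM in sh-LINC01977 libraries. The difference was small but exceeded the spread between libraries, with a log2 fold change of -0.19 (SE 0.046, edgeR adjusted p = 0.0381), and the call was lost with any library left out, with library totals, in both limma fits, without the filter and with a replicate block. PARVA, which encodes alpha-parvin, the binding partner of ILK, had a log2 fold change of 0.16 (edgeR adjusted p = 0.245). TLN1, which encodes talin, the protein that connects integrins to actin directly, stood at 319 ± 4.4 and 360 ± 19 CPM (SD, n = 3 each). The log2 fold change of 0.18 had an edgeR adjusted p of 0.0553, and TLN1 passed the threshold with DESeq2, with library totals, in both limma fits and with a filter of 1 FPKM.

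VCL, which encodes vinculin, had 104, 117 and 99.7 CPM in the sh-NC libraries and 117, 74.3 and 109 CPM in sh-LINC01977 libraries. The second sh-LINC01977 library was the lowest of the 6, and the log2 fold change was -0.10 (95% interval -0.50 to 0.30, edgeR adjusted p = 0.736) with it and 0.08 without it. ZYX, which encodes zyxin, a LIM protein of mature adhesions, stood at 86.3 ± 18 and 63.5 ± 11 CPM (SD, n = 3 each). All sh-LINC01977 libraries were below all sh-NC libraries, but with a log2 fold change of -0.44 and an SE of 0.18 the edgeR adjusted p was 0.145, while DESeq2 and the fit with a replicate block did call it. The alpha-actinins, which cross-link actin, were alike in size of difference, with log2 fold changes of 0.14 for ACTN1 (edgeR adjusted p = 0.0864) and 0.15 for ACTN4 (edgeR adjusted p = 0.298). FLNA, which encodes filamin A, a protein that also cross-links actin and binds integrin tails, had a log2 fold change of 0.13 (95% interval 0.01 to 0.25, edgeR adjusted p = 0.143). ACTN1 passed the threshold with library totals and in both limma fits, and FLNA with library totals alone.

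Actin itself was by far the most abundant product of the set. ACTB had means of 394 ± 19 FPKM in sh-NC and 450 ± 27 FPKM in sh-LINC01977 cells (SD, n = 3 each), and ACTG1, the other cytoplasmic actin, 276 ± 8.5 and 271 ± 19 FPKM. In CPM the log2 fold changes were 0.13 (edgeR adjusted p = 0.226) for ACTB and -0.09 (edgeR adjusted p = 0.344) for ACTG1. The groups overlapped for both genes.

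Serum response factor (SRF) drives many actin and adhesion genes through its CArG box, so the stretch from 250 bases before to 50 bases after each start in the RefSeq promoter table was searched on both strands for its strict form, with other motifs counted separately and overlaps allowed. The table held 169 promoters of 101 of the 127 genes. A CArG box was in 9 of the 169 (5.33%) and in 1.29% of all 35116 promoters of the table. GGAATG, a motif of TEAD factors, was in 14.8% and in 14.0% of all promoters, TGANTCA, a motif of AP-1, in 7.69% and 7.71%, and GGGCGG, a motif of SP1, in 63.3% and 45.0%. These are matches of letters, not shown sites of binding, and promoters of the same gene are not independent. The genes with a CArG box were ACTG1, ACTN1, BCL2, CAPN2, FLNA, MYL7, MYLK, PDGFA and ROCK2. Of the 8 higher and 9 lower genes in the promoter table, CAPN2 was the 1 higher gene and MYLK and ROCK2 were the 2 lower genes with a box, and the other 6 with a box were not past the threshold or not tested. The windows of the 3 called genes, and of FLNA and ACTG1 as highly expressed genes whose values missed the threshold, are printed 5′ to 3′ up to the start, from GRCh38.p14 (RefSeq), with the CArG box in capitals.
FLNA, chrX:154374635-154374884, minus strand: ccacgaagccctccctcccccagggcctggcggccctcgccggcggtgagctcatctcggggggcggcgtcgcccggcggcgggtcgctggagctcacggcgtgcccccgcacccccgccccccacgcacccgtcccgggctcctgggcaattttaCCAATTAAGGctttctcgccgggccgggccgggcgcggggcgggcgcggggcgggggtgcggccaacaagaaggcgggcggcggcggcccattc
ACTG1, chr17:81512800-81513049, minus strand: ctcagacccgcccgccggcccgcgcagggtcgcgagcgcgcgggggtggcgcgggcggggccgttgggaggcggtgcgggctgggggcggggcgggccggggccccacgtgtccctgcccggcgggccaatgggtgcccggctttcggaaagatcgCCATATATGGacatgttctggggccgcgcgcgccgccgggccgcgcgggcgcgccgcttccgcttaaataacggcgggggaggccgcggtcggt
CAPN2, chr1:223701347-223701596, plus strand: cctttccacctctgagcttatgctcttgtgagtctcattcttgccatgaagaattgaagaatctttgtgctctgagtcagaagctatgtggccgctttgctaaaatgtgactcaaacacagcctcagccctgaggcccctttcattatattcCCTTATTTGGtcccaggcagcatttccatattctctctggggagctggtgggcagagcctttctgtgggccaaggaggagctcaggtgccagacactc
MYLK, chr3:123620549-123620798, minus strand: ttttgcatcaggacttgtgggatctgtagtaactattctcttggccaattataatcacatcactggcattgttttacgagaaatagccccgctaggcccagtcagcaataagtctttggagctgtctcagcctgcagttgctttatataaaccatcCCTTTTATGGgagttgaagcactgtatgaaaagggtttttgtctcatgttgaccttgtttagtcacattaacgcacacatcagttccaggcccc
ROCK2, chr2:11345438-11345687, minus strand: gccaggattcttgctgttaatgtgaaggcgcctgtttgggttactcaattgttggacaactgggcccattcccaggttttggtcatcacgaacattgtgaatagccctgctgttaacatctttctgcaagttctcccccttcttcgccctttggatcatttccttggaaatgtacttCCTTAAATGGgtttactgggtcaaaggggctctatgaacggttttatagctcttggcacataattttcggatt
The box lay 94 bases before the start in FLNA, ACTG1 and MYLK, 98 bases in CAPN2 and 73 bases in ROCK2, counted from the first base of the box. For CAPN2 and ROCK2 the table lists 2 promoters, of which 1 held the box, and the windows of ACTG1, MYLK and ROCK2 lie inside the gene as listed. The start used for MYLK lies 264 kb after the 5′ end of the listed gene and 10.5 kb before its 3′ end, far inside it. Which start was used in these cells was not measured.

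Among the small GTPases RHOA, CDC42 and the RACs, with their regulators and effectors, 17 of 24 genes passed the filter, with 2 higher and 3 lower. RAC2 (ENSG00000128340, chromosome 22, 37225261 to 37244448, minus strand), a RAC otherwise known from blood cells, had the largest fold change of all 92 genes. Its counts of 123, 113 and 100 in the controls (sh-NC) and of 496, 396 and 352 in sh-LINC01977 libraries corresponded to 2.26, 2.29 and 1.70 CPM and to 9.01, 6.51 and 6.84 CPM. Every sh-LINC01977 library was above every control, with a log2 fold change of 1.84 (SE 0.20, edgeR adjusted p = 0.00251), which was 1.06 in limma on log2(FPKM + 1). Of 4 blood markers 3 were in the table, with a summed level of 9.28 to 12.6 FPKM in sh-NC and of 13.5 to 15.7 FPKM in sh-LINC01977 libraries. Nearly all of this was CD68, a lysosomal protein of macrophages (log2 fold change 0.44, edgeR adjusted p = 0.0627), while PTPRC, which all white blood cells express, had means of 0.00218 and 0 FPKM and HBB of 0.0447 and 0 FPKM. Their part in the RAC2 result was not tested. RAC2 remained a minor RAC, with means of 0.639 and 2.43 FPKM beside 52.3 and 62.1 FPKM for the ubiquitous RAC1.

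RAC1 had 203, 220 and 193 CPM in the sh-NC libraries and 229, 237 and 232 CPM in sh-LINC01977 libraries. These did not overlap, but the log2 fold change of 0.18 had an edgeR adjusted p of 0.0792. CDC42, a GTPase of filopodia, had a log2 fold change of 0.13 (edgeR adjusted p = 0.101), and both RAC1 and CDC42 passed the threshold with library totals and in both limma fits. RHOA, the GTPase that promotes stress fibres, was close to equal in both groups, at 418 ± 8.1 and 431 ± 4.6 CPM (SD, n = 3 each; log2 fold change 0.04, 95% interval -0.04 to 0.13, edgeR adjusted p = 0.466).

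The VAV proteins load RAC1 and its relatives with GTP, and both VAV genes that passed the filter fell. VAV3 (ENSG00000134215, chromosome 1, 107571160 to 107965144, minus strand) had 72.6, 73.2 and 81.3 CPM in the sh-NC libraries and 48.2, 55.9 and 53.4 CPM in sh-LINC01977 libraries. The groups were far apart, with a log2 fold change of -0.53 (SE 0.079, edgeR adjusted p = 0.00743). VAV2 fell from 87.4 ± 1.6 to 69.4 ± 4.7 CPM (mean ± SD, n = 3 each), with a log2 fold change of -0.33 (SE 0.063, edgeR adjusted p = 0.0162). VAV2 lost its call without the second or the third sh-LINC01977 library and without the first or second sh-NC library, with adjusted p up to 0.0578. VAV1, which is known from blood cells, was below the filter, with a count of 4 in 1 library and of 0 in the others.

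Of the effectors, PAK2, a kinase activated by RAC and CDC42, rose from 182 ± 3.8 to 206 ± 5.0 CPM (mean ± SD, n = 3 each), with a log2 fold change of 0.18 (SE 0.042, edgeR adjusted p = 0.0302). ROCK2, a kinase activated by RHOA, had 285, 303 and 287 CPM in the sh-NC libraries and 256, 251 and 237 CPM in sh-LINC01977 libraries. All sh-LINC01977 libraries were lower, with a log2 fold change of -0.23 (SE 0.048, edgeR adjusted p = 0.022). ROCK1 had 57.5, 60.7 and 58.2 CPM in the sh-NC libraries and 59.1, 60.6 and 41.7 CPM in sh-LINC01977 libraries. Of its libraries the third sh-LINC01977 library alone was low, and the log2 fold change of -0.13 (edgeR adjusted p = 0.586) was 0.03 without that library. The calls of PAK2 and ROCK2 did not hold throughout: PAK2 lost it with any library left out, and ROCK2 with any but the first sh-LINC01977 library left out and also with library totals and in limma.

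Myosin light chains and the enzymes that add or remove their phosphate were measured for 10 of 17 genes, with 1 higher and 1 lower. PPP1CB, the catalytic subunit of the myosin phosphatase, had 147, 142 and 151 CPM in the sh-NC libraries and 177, 175 and 171 CPM in sh-LINC01977 libraries. It was higher in all sh-LINC01977 libraries, with a log2 fold change of 0.25 (SE 0.045, edgeR adjusted p = 0.0141; 0.051 without the first sh-LINC01977 library). MYLK, which encodes the myosin light chain kinase and whose internal start is described above, stood at 25.1 ± 2.4 and 19.2 ± 1.1 CPM (SD, n = 3 each). The log2 fold change of -0.39 (SE 0.095, edgeR adjusted p = 0.039) lost its call with any library left out, with library totals, in limma, without the filter and with a replicate block, and its reads cannot be told apart from those of the overlapping MYLK-AS1 without strand. With a filter of 1 FPKM, MYLK was not tested. PPP1R12B, a targeting subunit of the phosphatase, had 2.36 CPM in the first sh-LINC01977 library and 14.0 to 17.7 CPM in the other 5, so that its log2 fold change of -0.62 (SE 0.59, edgeR adjusted p = 0.528) came from 1 library. The light chains MYL9, MYL12A and MYL12B had log2 fold changes of -0.17, -0.14 and -0.15, none of them past the threshold.

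In the MAP kinase branch, 14 of 17 genes passed the filter, with 1 higher and 1 lower. SHC1 (ENSG00000160691, chromosome 1, 154962298 to 154974395, minus strand), an adaptor that links receptors and integrins to RAS, had 142, 140 and 138 CPM in the sh-NC libraries and 190, 182 and 181 CPM in sh-LINC01977 libraries. The spread was small in both groups, with a log2 fold change of 0.40 (SE 0.043, edgeR adjusted p = 0.00248). MAPK3, which encodes the kinase ERK1, fell from 67.1 ± 3.9 to 56.5 ± 2.2 CPM (mean ± SD, n = 3 each), with a log2 fold change of -0.25 (SE 0.064, edgeR adjusted p = 0.0475), and lost its call with any library left out, with library totals, in limma, without the filter and with a replicate block. GRB2, the adaptor between SHC1 and the RAS activator SOS, varied widely, with 118, 66.4 and 113 CPM in the sh-NC libraries and 45.6, 47.6 and 96.5 CPM in sh-LINC01977 libraries. The groups overlapped, and the log2 fold change was -0.65 (SE 0.35, edgeR adjusted p = 0.259) with all libraries and -1.09 (edgeR adjusted p = 0.0577) without the third sh-LINC01977 library. MAP2K1, which encodes the kinase MEK1, had a log2 fold change of 0.16 (edgeR adjusted p = 0.109) and passed the threshold with library totals and in both limma fits.

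In the PI3 kinase and AKT branch 12 of 13 genes passed the filter, and edgeR called 0 of them in either direction. DESeq2 and limma called 0 as well, library totals called CTNNB1, and at an unadjusted p under 0.05 there were 2 higher genes, PIK3CA and CTNNB1, and lower genes that included AKT2 and PIK3R1. CTNNB1, which encodes beta-catenin, had the highest level of the branch, with means of 44.1 and 50.3 FPKM. Its CPM was 354, 373 and 374 in the controls (sh-NC) and 389, 397 and 416 in sh-LINC01977 libraries, which did not overlap (log2 fold change 0.13, SE 0.044, edgeR adjusted p = 0.109). Over the 12 genes the log2 fold changes ran from -0.35 to 0.45.

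Of the survival and cell cycle genes, 5 of 8 passed the filter, with 1 higher and 0 lower, and none was lower at an unadjusted p under 0.05, with DESeq2 or with limma. CCND1, which encodes cyclin D1, the partner of CDK4 and CDK6 in G1 phase, had 502, 509 and 495 CPM in the sh-NC libraries and 597, 610 and 567 CPM in sh-LINC01977 libraries. Each sh-LINC01977 library exceeded each control, with a log2 fold change of 0.24 (SE 0.041, edgeR adjusted p = 0.0117). With means of 82.5 and 102 FPKM it was also the most abundant gene among the 10 that were higher. CCND3 had means of 1.81 and 1.60 FPKM and a log2 fold change of -0.24 (edgeR adjusted p = 0.468).

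Families in which more than 1 gene was expressed allowed a comparison that does not depend on the scaling of the libraries, the log2 ratio of the CPM of both genes within each library. Of 20 pairs compared, 16 had both genes past the filter, and the ratios did not overlap between the groups in 7 of them, 4 of them higher and 3 lower after knockdown. The share among pairs of other genes was not measured. Single genes did not overlap for 37.1% of all tested genes, so this count by itself does not set these pairs apart. With 3 libraries against 3, the exact two-sided permutation test cannot give a p below 0.1, which each of these 7 pairs had (0.229 after Benjamini-Hochberg adjustment over the 16 pairs). The largest shift was in RAP1A/RAP1B, whose log2 ratio went from -0.63 ± 0.34 to -1.50 ± 0.36 (SD, n = 3 each), a difference of -0.87. VEGFA/VEGFB shifted by 0.53, from 2.94 ± 0.20 to 3.47 ± 0.17.

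Smaller shifts were found in pairs of which no gene or 1 gene passed the test by itself. PIK3R1/PIK3R2, regulatory subunits of PI3 kinase, shifted by -0.42, and PIK3CA/PIK3CB, its catalytic subunits, by 0.32. PPP1CA/PPP1CB shifted by -0.36 and AKT1/AKT2 by 0.30. ACTB/ACTG1 went from 0.65 ± 0.034 to 0.86 ± 0.13 (SD, n = 3 each), a difference of 0.22. The ratios of ACTN1/ACTN4 (-0.01), TLN1/TLN2 (-0.00) and MYL12A/MYL12B (0.01) differed by less than the spread between libraries. The same differences were obtained from FPKM to within 0.01. Where copies are nearly identical in sequence, as for ACTB and ACTG1, MYL12A and MYL12B, and RAP1A and RAP1B, the assignment of reads between them could move the ratio, and this was not tested.

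**Figure D5:**
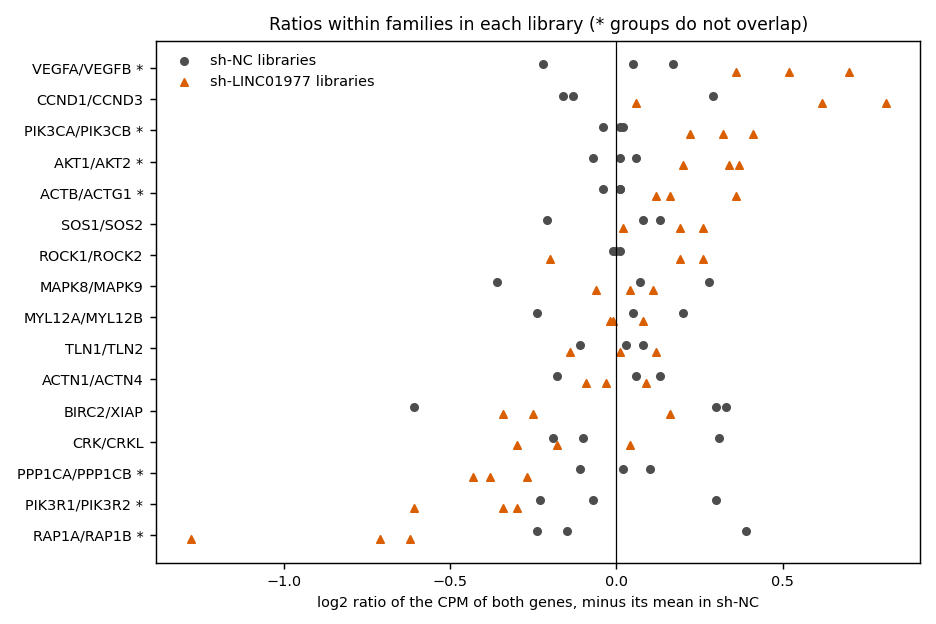
Log2 ratio of the CPM of both genes of a pair in each library, minus its mean in sh-NC (x axis), for the 16 pairs, with sh-NC as circles, sh-LINC01977 as triangles and a star on the 7 pairs whose groups do not overlap. RAP1A/RAP1B lies farthest to the left and VEGFA/VEGFB farthest to the right among the starred pairs.

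The 35 genes below the filter, among them MYLPF of skeletal muscle and VAV1 of blood cells, were read as counts. FYN, a kinase related to SRC, had counts of 105, 135 and 147 in the controls (sh-NC) and of 286, 268 and 263 in sh-LINC01977 libraries. MYL5, a myosin light chain, had counts of 178, 166 and 197 in the controls (sh-NC) and of 89, 92 and 93 in sh-LINC01977 libraries. Neither overlapped between groups, and in an edgeR fit of all 29153 genes, in which 5.36% of genes had an adjusted p under 0.05, these were the only 2 of the 35 to do so, FYN with a log2 fold change of 1.03 (adjusted p = 0.0223) and MYL5 with -1.03 (adjusted p = 0.0175). CAV1, which encodes caveolin 1, had counts of 10, 12 and 43 in the controls (sh-NC) and of 62, 52 and 38 in sh-LINC01977 libraries (adjusted p = 0.332 in the same edgeR fit). BCL2, the inhibitor of apoptosis, had counts of 37, 65 and 35 in the controls (sh-NC) and of 77, 94 and 80 in sh-LINC01977 libraries (adjusted p = 0.299 in the same edgeR fit). Others, such as FLT1, FLT4, PAK5 and VAV1, had a count of 8 or less in each library.

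Genes that border on the set, here and in the next paragraph, were counted in the same fit. In it, 7.05% of all tested genes were higher and 8.07% lower. Of the 58 genes that KEGG places in both Focal adhesion and ECM-receptor interaction, 29 passed the filter, with 14 higher and 3 lower and a median log2 fold change of 0.477, where the 92 genes had 0.026. The largest changes were those of the integrin subunits ITGA10 (1.36), ITGA3 (1.35) and ITGA5 (1.26), with edgeR adjusted p of 0.00335, 0.00233 and 0.00257. These integrin genes lay at low levels, with means under 1 FPKM. In limma on log2(FPKM + 1) their log2 fold changes were 0.61, 0.62 and 0.44. The filter used the mean over both groups, so their higher sh-LINC01977 values counted towards passing it. Of the 98 genes in Regulation of actin cytoskeleton but not in Focal adhesion, 70 passed the filter, with 8 higher and 7 lower. The largest changes among these 15 called genes were those of PFN2 (1.51, edgeR adjusted p = 0.00769), which encodes a profilin that delivers actin monomers, RRAS (0.98, edgeR adjusted p = 0.00536) and PIP5K1B (-0.95, edgeR adjusted p = 0.00866).

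The split within the set did not follow this second pathway. Of the 56 tested genes also in Regulation of actin cytoskeleton, 6 were higher and 5 lower, and of the 36 outside it, 4 were higher and 4 lower. A list of 40 adhesion scaffold genes outside the KEGG pathway had 30 past the filter, with 6 higher and 6 lower. TNS4, a tensin, went from 82.2 ± 7.9 to 243 ± 17 CPM (SD, n = 3 each; log2 fold change 1.56, edgeR adjusted p = 0.000466), SORBS3, which encodes the vinculin-binding protein vinexin, had a log2 fold change of -0.93 (edgeR adjusted p = 0.00335), and FHL2, a LIM protein, one of 0.81 (edgeR adjusted p = 0.00251). Of 53 actin turnover genes, 51 were in the table and 49 passed the filter, with 4 higher and 7 lower. These included PFN2, GSN, which encodes the filament-severing protein gelsolin (-0.65, edgeR adjusted p = 0.00186), and TMSB10, a thymosin that binds actin monomers (0.58, edgeR adjusted p = 0.0032).

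Of the 127 genes, 70 overlap another listed gene on the chromosome, among the called ones SHC1, PAK2, ROCK2, ILK, DOCK1, RAP1A, MYLK, PPP1CB, EGFR and CCND1. Nothing states whether the counting used strand, so reads of such neighbours cannot be told apart from theirs.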

How the data were processed

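Total RNA of 3 sh-NC and 3 sh-LINC01977 HepG2 libraries was extracted with TRIzol and sequenced by the authors on an Illumina HiSeq. Their single table, which the authors deposited, holds counts per gene, without normalization, and FPKM values that the authors deposited, scaled to length and library total, beside KEGG annotation. The submitters' processing notes list hg38, bcl2fastq 2.0, HISAT2, StringTie, DESeq2 and limma, with no roles. The counting tool, annotation and strand setting are not given in the sources used here. Libraries were assigned from their genotype labels.

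Counts were tested with edgeR 4.0.16 in R 4.3.3 (quasi-likelihood test, TMM scaling, group only, Benjamini-Hochberg adjustment) over 13452 genes (mean FPKM of 0.5 or more), or over all genes for those below. CPM used TMM-scaled totals. The fit was tested on simulated data. Alternatives were library totals, median-ratio scaling, no filter, a filter of 1 FPKM, DESeq2 1.42.0, limma 3.58.1 on log2(FPKM + 0.1) and log2(FPKM + 1), counts divided by 4, no mitochondrial genes, a replicate block and leaving out each library. Counts of 4 and its multiples are frequent in the table, so that single counts may not be independent fragments. Motifs were searched in the RefSeq promoter table (GRCh38.p14).

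The members, roles, lists and tests were chosen with earlier results of these data known. Named genes were called members with a mean FPKM of at least 1, core genes listed by name whatever their values, members past the study's thresholds, and up to 3 called genes of each other list. MYLK, GRB2, PPP1R12B, RAP1B, PDGFA, CRK, CRKL, RAC1, CDC42, VEGFA, ERBB2, ACTG1, MAP2K1, CTNNB1, CCND3, FYN, MYL5, CAV1, BCL2 and others were named after their values were seen. A few genes are counted in totals but not reported here by name.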

Additional observations from a re-analysis of the deposited data

How the results depend on the processing

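All 19 called members kept their direction in each of the 16 alternatives that tested them, with MYLK below the filter of 1 FPKM. The groups of all 19 did not overlap, so that leaving out 1 library could hardly reverse a direction. Calls were kept in all 16 alternatives by 11 members (CAPN2, CCND1, DOCK1, EGFR, PDGFRB, RAC2, RAP1A, RAPGEF1, SHC1, VAV3 and VEGFB). With library totals, 18 members were higher and 5 lower, in place of 10 and 9, and each limma fit had 15 higher and 5 lower. Over all genes, 1455 were higher and 768 lower with library totals, and 1269 and 729 (pseudocount 0.1) or 1285 and 734 (pseudocount 1) in limma, in place of 948 and 1085. DESeq2 called 25 members and 20.9% of all tested genes, where edgeR called 19 and 15.1%. Members past the study's thresholds were 1 higher in limma on log2(FPKM + 1), in place of 2, and 3 higher and 1 lower without the filter (FYN and MYL5 added), in place of 2 and 0. The median log2 fold change, 0.026, was 0.092 with library totals, 0.088 in limma on log2(FPKM + 0.1) and 0.07 in limma on log2(FPKM + 1), where all genes had medians of 0.065, 0.063 and 0.049. With 1 library left out, 8.74% to 10.4% of all tested genes were called, in place of 15.1%. Of the members, 4 to 6 were lower and 8 to 10 higher, with 2 higher and 0 to 1 lower past the study's thresholds. The median over members was -0.017 to 0.012. It was negative without the second or the third sh-NC library. ILK, MAPK3, MYLK and PAK2 lost their calls without any 1 of the 6 libraries.

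Libraries with the same replicate number showed no clear shared deviation, with correlations of -0.034, 0.00506 and 0.0613. The labels do not state whether the libraries were made in pairs. With the number as a replicate block, 16 members were called (9 higher, 7 lower), 15 of them shared, with ZYX gained and ILK, MAPK3, MYLK and PAK2 lost. Over all tested genes, 10.3% were called with this block, in place of 15.1%.

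Some differences near 0 changed sign. PTK2 was at 0.0021 with library totals and at 0.0003 and 0.0002 in the limma fits. Without the third sh-LINC01977 library, ROCK1 (-0.22 to 0.03) was at 0.03 and VEGFA (-0.20 to 0.05) at 0.0012. VEGFA was at 0.05 without the second sh-NC library, and VCL (-0.22 to 0.08) at 0.08 without the second sh-LINC01977 library. The causes were not tested.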
